A study of Xenopus laevis with 12 samples.

Results

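Thioridazine-treated and control heads of Xenopus laevis tadpoles were compared at NF stage 45 of the Nieuwkoop and Faber series, across all genes. The 6 libraries were chosen by their titles, 3 of thioridazine and 3 of control heads, out of 12 libraries in the study; the other 6 come from stage 47. Controls are labelled wild type, and treated embryos were kept in 90 µM thioridazine during neurula stages (NF 14 to 26) at 18 °C, as were the untreated controls in their medium, before return to 14 °C until feeding. The labels describe treated tadpoles as having malformed faces. Exposure thus ended well before the heads were taken, and no label gives the clutch, the sex or how many heads a library pools. Each replicate is labelled biological. The p-values of the paired test used below speak only for the spread left among all 12 libraries once replicate numbers are matched within a stage.

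Thioridazine is a phenothiazine antipsychotic that blocks dopamine D2 receptors. The window of exposure covers neurulation and the onset of cranial neural crest migration, and the crest gives rise to facial cartilage and to the melanophores that make melanin in melanosomes. By stage 45 the head also holds an eye with a lens filled with crystallins, working muscle, larval skin and a differentiating brain. X. laevis carries a duplicated genome, and gene symbols end in .L or .S for the 2 homeologous copies (homeologs).

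The 6 libraries held 11998636 to 16710935 counts over genes, 30868 to 31396 genes had at least 1 count, and Spearman correlations within a group were 0.966 to 0.983. Markers of lens, photoreceptors, neurons, cartilage, skeletal muscle, epidermis and pigment cells were present in all 6 libraries, as the label whole head implies, and tyr, krt5 and cd68 could not be matched by symbol. Heart markers were present as well, while the pancreas markers prss1.L and prss1.2.S were at 0 and the other pancreas markers at no more than 1.21 CPM (counts scaled to a common library size). In a whole head, fewer cells of a type and less RNA per cell cannot be told apart.

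Libraries of the same replicate number resembled each other across treatment. Their deviations from the group means correlated over genes at 0.336, 0.586 and 0.326 for replicates 1, 2 and 3, against -0.435 to 0.11 for unlike numbers. Such deviations sum to 0 in each group, so positive values for like numbers push those for unlike numbers below 0 on balance. The contrast with unlike numbers is thus no separate evidence for pairs. On the values for like numbers, each gene was tested with the replicate number as a block within its stage. The test was edgeR's quasi-likelihood test with Benjamini-Hochberg adjustment over 27050 genes, and a gene with an adjusted p under 0.05 is called here. All statements that a gene rose or fell rest on that paired test.

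At stage 45, 268 genes were called, 0.991% of those tested. Of these 110 rose (0.407%) and 158 fell (0.584%). Without the block the same test called 0 genes, with 1441 genes at an unadjusted p under 0.05 and a smallest adjusted p of 0.139. The called set therefore depends on treating the replicate numbers as pairs, and DESeq2 without a block called 77 genes, 55 of them among the 268. Without pair 1 the paired test called 42 genes, without pair 2 it called 133 and without pair 3 it called 153, and 33 of the 268 stayed called in each of these 3 tests.

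Changes were moderate in size. Of the 268 genes, 134 differed by at least 1.5-fold and 33 by at least 2-fold. All 268 had the same direction in the 3 pairs, which was so for 9420 of the 27050 genes tested. The paired test that called them favours genes of equal direction in these pairs, so this is no separate evidence. In 191 of them the 3 treated and 3 control libraries did not overlap. Over all genes 1134 had every treated library above every control (4.19%) and 1450 had every treated library below (5.36%). The median log2 fold change over all genes was 0.02.

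**Figure D1:**
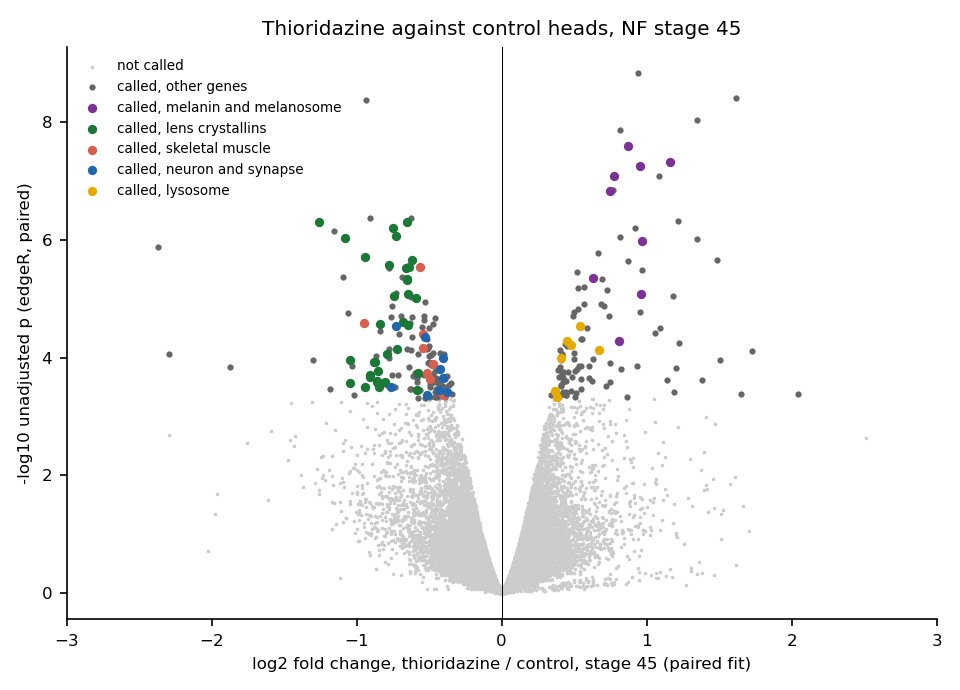
Each point is 1 of the tested genes, with the log2 fold change of thioridazine over control at stage 45 on the x axis and the -log10 unadjusted p of the paired edgeR test on the y axis; 1 gene lies outside the x axis range. Among called genes, melanosome and lysosome genes lie to the right and lens crystallins, skeletal muscle and neuron genes to the left.

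Among genes of melanin synthesis and the melanosome, every call was a rise. Which cells of the head, crest-derived or not, carried the rises was not tested. Of 36 tested members 9 rose and 0 fell, 29 were higher, and the median log2 fold change was 0.20. Dopachrome tautomerase, dct.L, a melanin enzyme, stood at 31.1, 26.1 and 21.3 CPM in controls and 49.1, 47.8 and 53.4 CPM in treated libraries. The groups did not overlap, and the log2 fold change was 0.95 (SE 0.11, adjusted p = 0.000188 in edgeR's paired test, 0.139 without the block). Its relative tyrp1.L measured 144, 181 and 148 CPM in controls against 235, 297 and 278 CPM in treated heads (log2 fold change 0.78, SE 0.09, adjusted p = 0.000225, 0.254 without the block). Every treated value again exceeded every control value.

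The melanosome fibre protein pmel.S measured 79.9, 103.6 and 83.0 CPM in controls and 138, 169 and 178 CPM in treated heads. Its log2 fold change of 0.87 (SE 0.10, adjusted p = 0.000115, 0.514 without the block) stood beside 0.75 for its homeolog pmel.L (adjusted p = 0.000331, 0.282 without). Both homeologs thus rose. The melanosome protein mlana.L rose 2.23-fold, from 8.46, 11.7 and 8.85 CPM to 16.7, 21.3 and 26.7 CPM (adjusted p = 0.000181, 0.233 without the block).

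The remaining called members were the ion exchanger slc24a5.L (log2 fold change 0.97), the melanosome transport GTPase rab38.S (0.96), the transporter slc45a2.L (0.63) and the receptor gpr143.S (0.81), whose adjusted p lay at 0.015 or below and without the block at 0.233 to 0.553. Of these, slc45a2.L and gpr143.S fall outside the naming rule and were chosen after their values were seen. Of the 36 genes 16 had every treated library above every control library, which was so for 4.19% of all genes tested. Without pairs 1, 2 and 3 the list had 7, 7 and 6 called members.

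Among receptors and regulators of the pigment lineage 2 of 30 rose and 0 fell, and 1 was called without any 1 of the pairs. The endothelin receptor ednrb2.S, which pigment cell precursors carry, read 26.9, 30.5 and 32.1 CPM in controls and 44.1, 56.0 and 57.9 CPM in treated heads. The groups did not overlap, and the log2 fold change was 0.81 (SE 0.09, adjusted p = 7.49e-05, 0.139 without the block). Its homeolog ednrb2.L rose by 0.74 on the log2 scale (adjusted p = 0.0355, 0.728 without the block). The crest and pigment factor sox10 was not called, at 0.05 for sox10.L and -0.12 for sox10.S on the log2 scale (adjusted p = 0.901 and 0.651).

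The tetraspanin gene tspan36.L measured 3.85, 6.41 and 7.29 CPM in controls and 10.5, 13.6 and 20.5 CPM in treated heads (log2 fold change 1.35, SE 0.14, adjusted p = 6.27e-05, 0.553 without the block). The unnamed gene LOC108710021, picked after its values were seen, had the smallest p of all genes, at 34.8, 49.7 and 34.9 CPM in controls and 64.5, 85.4 and 77.7 CPM in treated heads. In the assembly Xenopus_laevis_v10.1 it lies between naalad2.S on 1 side and ctsc.S and rab38.S on the other. The purine enzyme xdh.S rose by 0.94 and the carotenoid-cleaving bco2l.L fell by 0.71 on the log2 scale (adjusted p = 0.0257 and 0.0123, 0.396 and 0.413 without the block). Their list, of pteridine and purine pigment synthesis with some carotenoid genes, held 1 rise and 1 fall among 24, and without pair 1 it held 0.

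**Figure D2:**
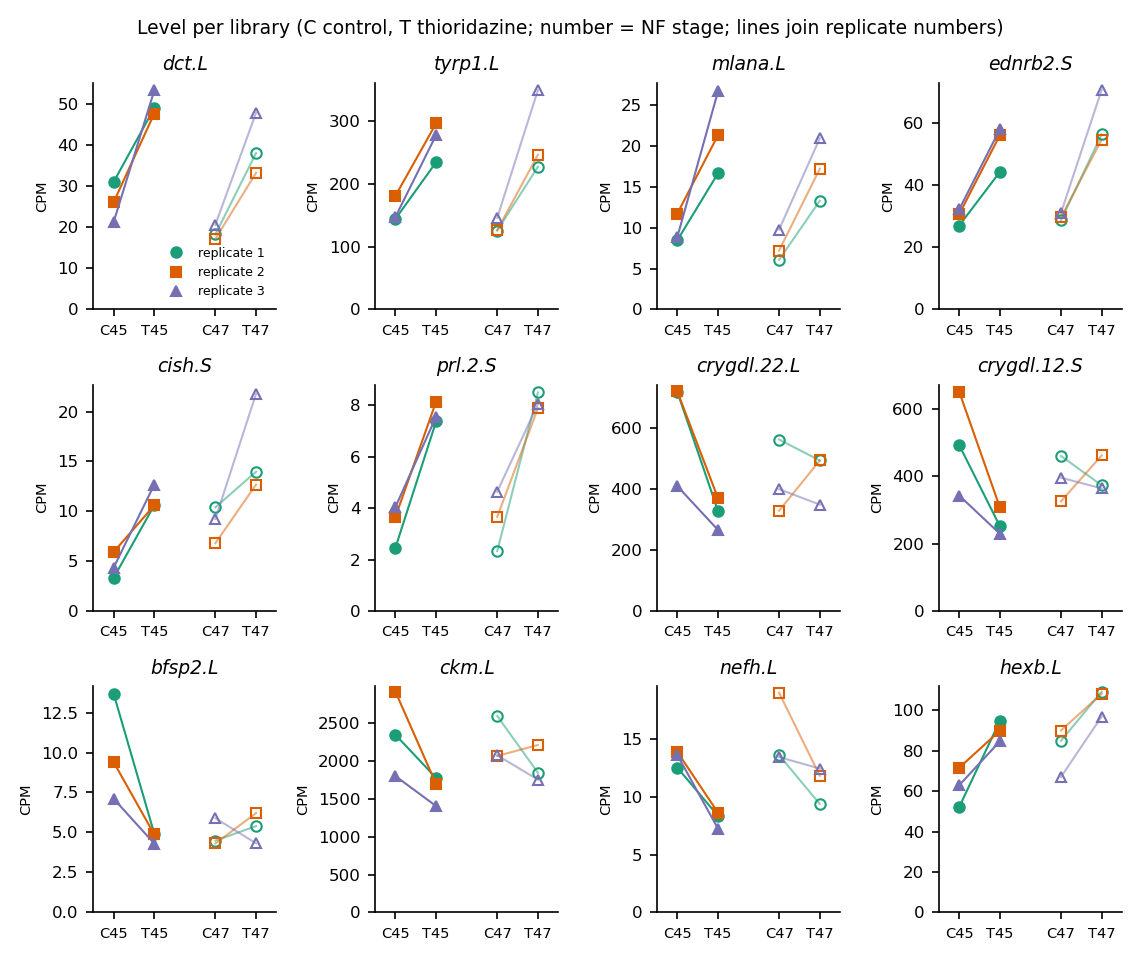
Level in CPM (y axis) in every library of 12 genes, with controls (C) and thioridazine (T) at stage 45 as filled and at stage 47 as open symbols and lines joining equal replicate numbers. The pigment genes dct.L, tyrp1.L, mlana.L and ednrb2.S rise in every stage 45 pair, whereas crygdl.22.L, crygdl.12.S, bfsp2.L, ckm.L and nefh.L fall in every stage 45 pair.

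The lens had the largest share of called genes of any list. Of 76 tested crystallins 35 fell and 0 rose, 71 were lower, and the median log2 fold change was -0.78. All 35 were gamma-crystallins, the structural proteins of lens fibres, 23 of them .L and 12 .S copies. Of 60 tested gamma-crystallins 59 were lower (median -0.82), and of 16 alpha- and beta-crystallins 12 were lower (median -0.62) with 0 called. Gamma-crystallins form a family of many similar copies, and how reads shared between copies were counted is not given in the sources used here, so the level of any single copy is uncertain.

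The copy crygdl.22.L measured 719, 720 and 409 CPM in controls and 328, 370 and 265 CPM in treated heads (log2 fold change -0.91, SE 0.16, adjusted p = 0.0331, 0.514 without the block). The copy crygbl.3.S stood at 13.9, 15.6 and 10.2 CPM against 5.83, 5.78 and 4.8 CPM (log2 fold change -1.26, SE 0.17, adjusted p = 0.000805, 0.233 without the block). In neither did the groups overlap. Control replicate 3 was the lowest control of both copies, and the list median by pair was -0.94, -0.92 and -0.47. The crystallins summed to 12340, 14150 and 7871 CPM in controls and 6362, 7298 and 5545 CPM in treated heads. Without pair 1 the list held 9 called members without pair 2 it held 11, and without pair 3 it held 39.

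In the list of lens fibre genes and lens regulators other than crystallins 3 of 27 fell, 0 rose and 22 were lower. Its median was -0.35 in pairs 1 and 2 and -0.08 in pair 3, and 0, 1 and 4 members were called without pairs 1, 2 and 3. The beaded filament gene bfsp2.L read 13.7, 9.40 and 7.11 CPM in controls and 4.92, 4.88 and 4.30 CPM in treated heads (log2 fold change -1.06, SE 0.19, adjusted p = 0.00728, 0.315 without the block). The small heat shock protein hspb1.S fell by 0.63 and the klotho-like lctl.L by 0.78 on the log2 scale (adjusted p = 0.00943 and 0.018, 0.413 and 0.651 without the block). The homeologs bfsp2.S and hspb1.L had log2 fold changes of -0.70 and -0.51 and were not called (adjusted p = 0.0892 and 0.148).

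Skeletal muscle genes were lower in 86 of 100 tested members, 10 of which fell and 0 of which rose, with a median log2 fold change of -0.25. Muscle creatine kinase ckm.L measured 2348, 2917 and 1802 CPM in controls and 1777, 1695 and 1405 CPM in treated heads. Every treated value lay below every control, and the log2 fold change was -0.51 (SE 0.11, adjusted p = 0.0304, 0.64 without the block). Fast-fibre actinin actn3.L stood at 257, 296 and 244 CPM in controls against 191, 184 and 170 CPM in treated heads (log2 fold change -0.54, SE 0.11, adjusted p = 0.018, 0.319 without the block). The other named members that fell were the myosin light chain myl3.L (-0.54), the myosin-binding protein mybpc1.S (-0.95), the actin acta1.S (-0.56), tropomyosin tpm2.L (-0.47) and troponin tnnt3.S (-0.49), with adjusted p from 0.00224 to 0.0335 and from 0.491 to 0.885 without the block. Without pairs 1, 2 and 3, 1, 2 and 1 members of the list were called.

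Myogenic transcription factors were not called, and 23 of 37 were lower. Among them myogenin, myog.S, had a log2 fold change of 0.46 (adjusted p = 0.117). Heart muscle genes were higher in 17 and lower in 14 of 31, with 0 called. Their sum was lower in treated heads in every pair, at 4981, 6646 and 5117 CPM in controls and 4401, 5399 and 4206 CPM in treated heads.

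Neuron and synapse genes were lower in 98 of 112 tested members, of which 9 fell and 0 rose, with a median log2 fold change of -0.19. The neurofilament nefh.L measured 12.5, 13.9 and 13.6 CPM in controls and 8.36, 8.64 and 7.26 CPM in treated heads (log2 fold change -0.73, SE 0.13, adjusted p = 0.00987, 0.354 without the block). Glutamate decarboxylase gad1.1.L, which makes GABA, stood at 125, 93.9 and 98.1 CPM against 77.1, 82.8 and 60.8 CPM (log2 fold change -0.53, SE 0.10, adjusted p = 0.0135, 0.514 without the block). Neither gene had overlapping groups. The kinase subunits camk2b.L and camk2a.S and the synaptic vesicle gene syn2.S fell by 0.41, 0.41 and 0.43 on the log2 scale (adjusted p = 0.0217, 0.0331 and 0.0279, 0.57 to 0.604 without the block). Pair 2 moved least, with list medians of -0.25, -0.04 and -0.31 in pairs 1, 2 and 3. Without pair 1 or pair 3, 0 neuron genes were called, and without pair 2 there were 8.

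Of 88 neural progenitor regulators 57 were higher and 0 were called, where 54.1% of all genes were higher. Their median log2 fold change was 0.06, at -0.02, 0.01 and 0.12 in pairs 1, 2 and 3, so the lean upward came mainly from pair 3. Their member with the smallest p was the receptor notch1.L (log2 fold change 0.38, adjusted p = 0.118). Rod and cone genes had 1 rise and 2 falls among 70, and 45 were lower. Without pair 1 or pair 2, 0 were called, and without pair 3 there was 1. The photoreceptor genes sag.S (arrestin) and guca1al.S (a cyclase activator) fell by 0.50 and 0.46 on the log2 scale (adjusted p = 0.0207 and 0.0432, 0.9997 and 0.763 without the block), and their groups overlapped. The cone opsin kinase grk7.L rose from 37.6, 29.4 and 31.9 to 48.9, 44.8 and 41.9 CPM (log2 fold change 0.46, SE 0.09, adjusted p = 0.0154, 0.553 without the block). Its homeolog grk7.S had a log2 fold change of 0.09 and was not called (adjusted p = 0.845). The retinol dehydrogenase rdh10.L rose by 0.39 on the log2 scale (adjusted p = 0.0494, 0.553 without the block) and is the only called member of the retinal pigment epithelium list (26 tested) and of the retinoic acid list (45 tested).

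**Figure D3:**
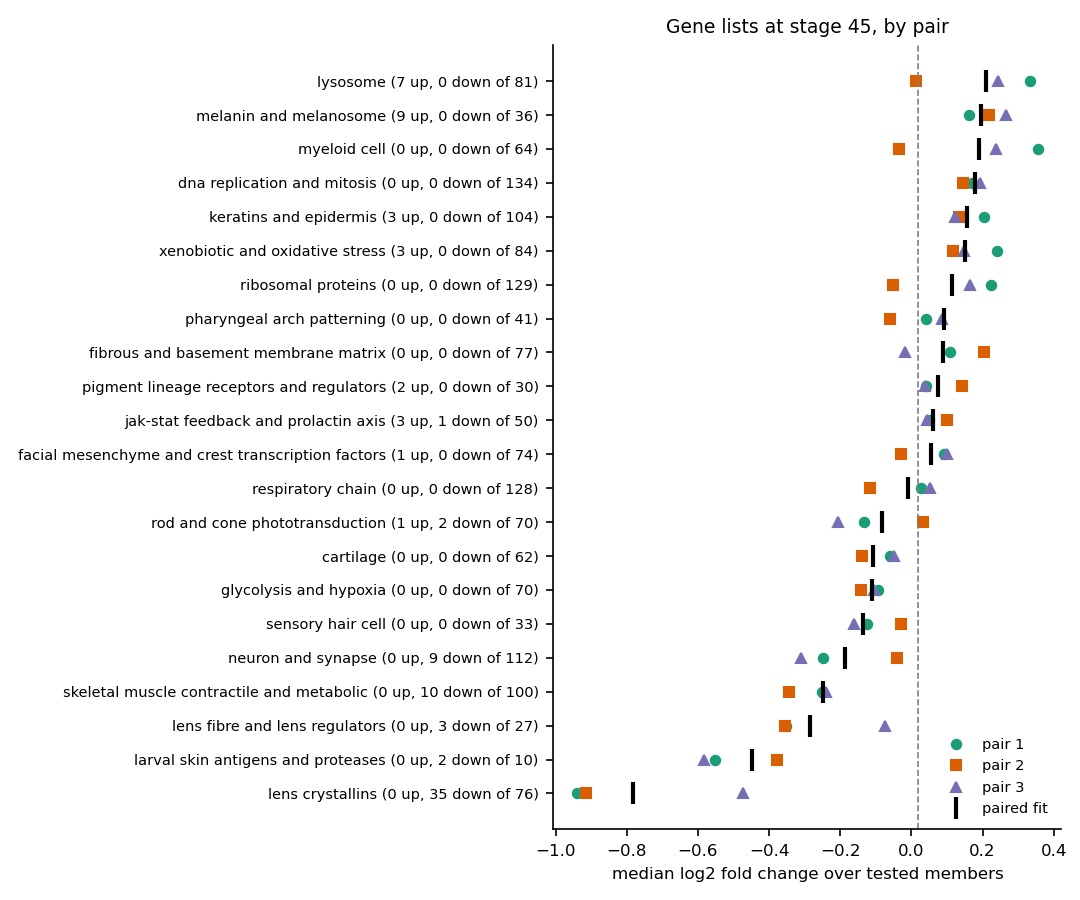
Median log2 fold change over the tested members of 22 gene lists (x axis) at stage 45 for each replicate pair and in the paired fit, with the number of members that rose and fell. The dashed line is the median of all genes; in the paired fit the lens crystallin list lies lowest, and pair 2 departs from pairs 1 and 3 in the lysosome, myeloid, ribosomal and neuron lists.

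Lysosomal genes were higher in 71 of 81, with 7 rises, 0 falls and a median log2 fold change of 0.21. Hexosaminidase hexb.L read 52.1, 71.5 and 62.9 CPM in controls and 94.7, 89.9 and 84.6 CPM in treated heads (log2 fold change 0.54, SE 0.10, adjusted p = 0.00987, 0.413 without the block). The groups did not overlap. Both fucosidase homeologs rose, fuca1.S by 0.45 and fuca1.L by 0.41 on the log2 scale, as did naga.S (0.48) and gusb.L (0.67). Their adjusted p ran from 0.015 to 0.0217, and from 0.604 to 0.9997 without the block. The homeolog gusb.S had a log2 fold change of -0.0017 and was not called (adjusted p = 0.9996). The protease gene ctsv.L, which is not on the list, rose by 0.46 (adjusted p = 0.0154, 0.64 without the block). The list median was 0.33, 0.01 and 0.24 in pairs 1, 2 and 3, and without pair 1, 0 members were called, against 10 without pair 2 and 2 without pair 3.

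Myeloid cell genes were higher in 53 of 64 with 0 called, and their sum was 453, 518 and 468 CPM in controls and 573, 500 and 523 CPM in treated heads. The defining myeloid markers lyz.L, tyrobp.S and tyrobp.L were detected at no more than 5.41 CPM, and the part of myeloid cells in the lysosomal rise was not tested. The granulocyte receptor csf3r.L had a log2 fold change of 0.75 (adjusted p = 0.0796, 0.64 without the block). The list does not hold every myeloid gene. The peroxidase gene epx.L and the properdin gene cfp.L, not on it and picked after their values were seen, were called. They rose by 0.57 and 0.45 on the log2 scale (adjusted p = 0.604 and 0.413 without the block).

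Epidermal genes had 3 rises and 0 falls among 104, and 78 were higher (median 0.16). Log2 fold changes of the list ran from -5.10 to 1.525, and the member at -5.10 was not called. Without pair 1 or pair 2, 0 were called, and without pair 3 there were 4. The keratin krt12.4.L rose within each pair from 95.3, 43.5 and 64.5 to 157, 67.9 and 78.5 CPM, with overlapping groups (log2 fold change 0.55, SE 0.10, adjusted p = 0.014, 0.9997 without the block). The desmosome gene pkp3.S and the integrin itga6.S each rose by 0.42 on the log2 scale (adjusted p = 0.0194 and 0.0299, 0.491 and 0.553 without the block). Of 10 larval skin genes 2 fell, the protease xepsin.S (-1.02, adjusted p = 0.0461, 0.51 without the block) and the larval antigen ouro1.S (-0.53, adjusted p = 0.0497, 0.91 without the block). Without any 1 of the pairs, 0 of the 10 were called. The summed level of the list was higher in treated heads in every pair, at 353, 274 and 302 CPM in controls and 965, 493 and 413 CPM in treated heads, and its member itln1.L, picked after its values were seen, had a log2 fold change of 1.21 (adjusted p = 0.538).

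In the list of xenobiotic and oxidative stress genes 3 of 84 rose, 0 fell and 69 were higher (median 0.15). Without pairs 1, 2 and 3 there were 0, 1 and 3 called. The glutathione transferase gstp1.L went from 65.0, 111 and 214 to 149, 174 and 284 CPM, with overlapping groups (log2 fold change 0.74, SE 0.12, adjusted p = 0.00788, 0.9997 without the block). The cytochrome P450 gene cyp2e1.L went from 15.7, 17.3 and 18.1 to 26.2, 27.0 and 28.7 CPM with no overlap (log2 fold change 0.68, SE 0.12, adjusted p = 0.00571, 0.315 without the block). The other called member, cyp2r1.L, encodes the vitamin D 25-hydroxylase rather than a drug-handling enzyme (log2 fold change 0.48, adjusted p = 0.0422, 0.614 without the block). The aldo-keto reductase akr1c2.L, which is not on that list, measured 95.3, 132 and 178 CPM in controls and 209.5, 222 and 262 CPM in treated heads (log2 fold change 0.82, SE 0.11, adjusted p = 0.00108, 0.553 without the block). Liver genes differed in sign between pairs, with a median over 78 genes of 1.40, 0.04 and -0.70 in pairs 1, 2 and 3. They summed to 1666, 2592 and 2052 CPM in controls and 3159, 2688 and 1834 CPM in treated heads. Among liver markers alb.S ranged from 0 to 2.16 CPM, fga.L from 0 to 2.65 and fga.S from 0 to 86.5. The markers apoa1.L and apoa1.S ranged from 13.1 to 39.7 and from 6.31 to 33 CPM. The part of liver RNA in the rise of drug-handling genes was not tested. The gluconeogenic enzyme fbp1.L was the only called liver gene (log2 fold change 0.41, adjusted p = 0.0381, 0.673 without the block).

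Genes of the prolactin and JAK-STAT axis held 3 rises and 1 fall among 50, and 1, 3 and 3 calls without pairs 1, 2 and 3. The list as a whole was mixed, with 28 higher and 22 lower and a median log2 fold change of 0.06. Its largest log2 fold change, 1.67, was in a gene not called. Prolactin is a pituitary hormone that signals through STAT5, cish is a STAT5-induced inhibitor of that signal, and bcl6 is a repressor that STAT5 turns down in mammals. The prolactin gene prl.2.S measured 2.46, 3.66 and 4.05 CPM in controls and 7.38, 8.15 and 7.56 CPM in treated heads (log2 fold change 1.18, SE 0.20, adjusted p = 0.00469, 0.254 without the block). The inhibitor cish.S stood at 3.31, 5.91 and 4.34 CPM against 10.6, 10.6 and 12.7 CPM (log2 fold change 1.34, SE 0.18, adjusted p = 0.0011, 0.233 without the block). In both genes every treated library lay above every control. The homeolog cish.L rose by 0.72 on the log2 scale (adjusted p = 0.0384, 0.604 without the block). The repressor bcl6.S fell from 18.1, 17.1 and 16.3 to 9.56, 11.3 and 12.5 CPM (log2 fold change -0.62, SE 0.12, adjusted p = 0.018, 0.315 without the block), and bcl6.L just missed the threshold at -0.52 (adjusted p = 0.0515). The other prolactin genes, prl.1.L and prl.1.S, had no more than 0.139 CPM in any library and were not tested.

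Facial cartilage and patterning genes held few calls. Over all genes 0.991% were called, and at that share lists of this size would hold few calls too. Of 62 cartilage genes 26 were higher and 36 lower with 0 called, where 54.1% of all genes were higher. Their median log2 fold change was -0.11, at -0.06, -0.14 and -0.05 in pairs 1, 2 and 3. The matrix gene aspn.L, not on the list and picked after its values were seen, was called. It fell by 0.49 on the log2 scale (adjusted p = 0.433 without the block). Its homeolog aspn.S had -1.05 and was not called (adjusted p = 0.33). The cartilage collagen col2a1.L measured 704, 778 and 948 CPM in controls and 752, 896 and 823 CPM in treated heads, with overlapping groups (log2 fold change 0.03, SE 0.11, adjusted p = 0.949). For col2a1.S and the chondrogenic factors sox9.L and sox9.S the log2 fold changes were -0.12, 0.0050 and -0.08 (adjusted p = 0.662, 0.992 and 0.815). The matrix protein gene prelp.S had the smallest p of the list (-0.54, adjusted p = 0.223).

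Arch patterning genes were not called among 41, and 27 were higher. Log2 fold changes were -0.05 and 0.09 for dlx5.L and dlx5.S, -0.06 and 0.29 for hand2.L and hand2.S, and 0.24 and -0.23 for the ligand edn1.L and edn1.S, with adjusted p from 0.559 to 0.882. The transcription factor mef2c.S, with the smallest p of that list, had -0.23 (adjusted p = 0.336). Of 74 facial mesenchyme factors 1 rose, the homeobox gene alx1.L (log2 fold change 0.54, adjusted p = 0.0338, 0.64 without the block). Its homeolog alx1.S had a similar log2 fold change of 0.58 and was not called (adjusted p = 0.114).

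The matrix proteases, dopamine receptor copies and thyroid hormone receptor examined here were not called either, nor was any of 30 dopamine system genes. With 0.991% called over all genes, lists of this size would hold few calls at that share. Log2 fold changes were 0.48 for mmp9.1.S, 0.18 for mmp9.2.L and 0.67 for mmp13.S (adjusted p = 0.432, 0.901 and 0.08), with 0 of 27 metalloproteinases called. The dopamine receptor copies drd2.L and drd2.S stood at -0.18 and -0.13 (adjusted p = 0.811 and 0.91), and the thyroid hormone receptor thrb.S at 0.09 (adjusted p = 0.948). In the list of fibrous and basement membrane matrix 0 of 77 were called, and the tenascin gene tnn.L came nearest (-1.45, adjusted p = 0.0544).

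Some lists leaned 1 way with 0 called. DNA replication and mitosis genes were higher in 122 of 134 (median 0.18), and birc5l.S had the smallest p (log2 fold change 0.36, adjusted p = 0.0563). The cell division gene cdca3.L, not on that list and picked after its values were seen, was called. It rose by 0.40 on the log2 scale (adjusted p = 0.803 without the block). Ribosomal protein genes were higher in 127 of 129 (median 0.11), although their median in pair 2 was -0.05, and rpl10.L had the smallest p (0.33, adjusted p = 0.119). Glycolysis genes were lower in 49 of 70 (median -0.11), with gpi.L at -0.36 (adjusted p = 0.0891). Over all genes 54.1% were higher.

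Several of the most changed genes are on none of these lists. Among called genes the largest fall in log2 terms was in the growth factor gene fgf23.2.S. It stood at 3.85, 2.83 and 0.231 CPM in controls and 0.914, 0.348 and 0.0615 CPM in treated heads. Its groups overlapped and its level followed the replicate number (log2 fold change -2.37, SE 0.34, adjusted p = 0.00136, 0.954 without the block). The secretory gene crisp1.7.L fell by 1.30 and plaat1.S by 0.94 on the log2 scale (adjusted p = 0.0222 and 0.0394, 0.834 and 0.574 without the block). The rises outside the lists included ceacam19lx.L (1.38), the sugar transporter slc2a7.L (1.14), the melanosome-related mreg.S (0.87) and the zinc transporter slc30a2.L (0.82), with adjusted p from 0.0274 to 0.0486 and from 0.491 to 0.604 without the block. The homeolog mreg.L had a log2 fold change of 0.21 and was not called (adjusted p = 0.39).

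Among the named genes of high level, the ribonucleotide reductase subunit rrm2b.S measured 155, 190.1 and 166 CPM in controls and 245, 242 and 249 CPM in treated heads (log2 fold change 0.53, SE 0.11, adjusted p = 0.0257, 0.544 without the block). The sodium pump subunit atp1b2.L stood at 279.9, 387 and 297 CPM against 467, 461 and 466 CPM (log2 fold change 0.55, SE 0.11, adjusted p = 0.026, 0.553 without the block). The treated libraries of both genes lay close together and above all controls.

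Homeologs of called genes mostly had the same sign. Over all 7049 tested pairs of homeologs 66.9% did. Of the 110 raised genes 49 had a tested partner, 43 of the partners were higher too and 10 were called. Of the 158 lowered genes 83 had a partner, 81 of the partners were lower and 24 were called. A pair with both copies called is counted here from each copy, whereas the 66.9% counts every pair once. Such pairs numbered 5 among raised and 12 among lowered genes. Without gamma-crystallins 58 of 60 partners of lowered genes were lower. Among the genes named above, acta1.S and crisp1.7.L fell while their partners acta1.L and crisp1.7.S stood at 0.12 and 0.41 on the log2 scale. The raised genes gusb.L, atp1b2.L and slc30a2.L had partners at -0.0017, -0.01 and -0.25. None of these partners was called (adjusted p from 0.662 to 0.9996). Reads shared between homeologs could not be told apart here, since the counting of such reads is not given in the sources used here.

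**Figure D4:**
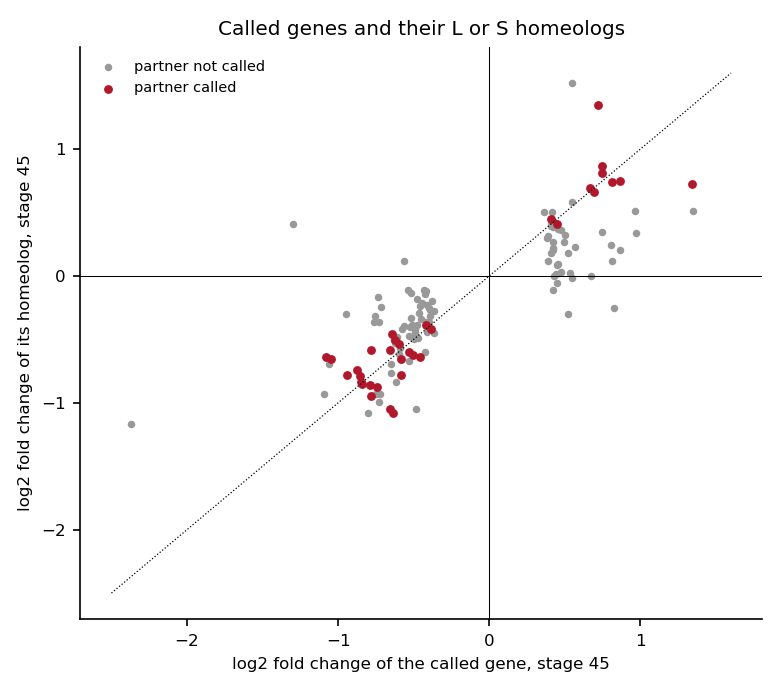
Log2 fold change at stage 45 of each called gene with a tested partner (x axis) against that of its homeolog (y axis); red marks partners that were called as well. Most points lie at the lower left or the upper right, 81 of 83 partners of lowered genes being lower and 43 of 49 partners of raised genes higher.

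The stage 47 heads are separate libraries from the same treatment. In them 171 genes were called (0.632%), 138 higher (0.51%) and 33 lower (0.122%). Of the 110 genes that rose at stage 45, 105 were higher at stage 47 and 37 rose there too. Of the 158 that fell, 109 were lower at stage 47 and 7 fell there. Of all tested genes 59.4% had the same sign at both stages. The 44 genes called in the same direction at both stages were 16.4% of the stage 45 calls and 25.7% of the stage 47 calls, and 0 genes were called in opposite directions. Both stages were tested in the same fit with a shared estimate of each gene's spread, so calls at both stages are not fully independent.

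Of the melanin and melanosome list 6 genes rose at stage 47, against 9 at stage 45. The log2 fold change of dct.L was 1.08 (18.3, 17.2 and 20.7 CPM in controls, 38.1, 33.3 and 48.0 CPM in treated heads, adjusted p = 2.81e-05). For ednrb2.S it was 1.02, for tspan36.L 1.37, for prl.2.S 1.20 and for cish.S 0.87 (adjusted p = 2.8e-06, 1.57e-05, 0.00369 and 0.017). Treated libraries lay above all controls in dct.L at both stages. Not called at stage 47 were slc24a5.L (log2 fold change 0.61, adjusted p = 0.0632), rab38.S (0.65, adjusted p = 0.12), gpr143.S (0.58, adjusted p = 0.13), ednrb2.L (0.51, adjusted p = 0.241), cish.L (0.42, adjusted p = 0.375) and bcl6.S (-0.46, adjusted p = 0.155), all of which were called at stage 45.

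The effect itself differed between the stages in 27 genes (0.0998%), 25 with the lower value at stage 45, and 18 of the 268 called genes were among them. Of these 11 were gamma-crystallins. The 35 gamma-crystallins that fell at stage 45 had a median log2 fold change of 0.11 at stage 47, 29 had the opposite sign there and 0 were called. The copy crygdl.22.L, for example, measured 562, 329 and 399 CPM in controls and 493, 493 and 349 CPM in treated heads at stage 47, with overlapping groups. Of the other genes that fell, 103 (83.7%) were lower at stage 47 as well. Without the block 0 genes differed between stages.

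**Figure D5:**
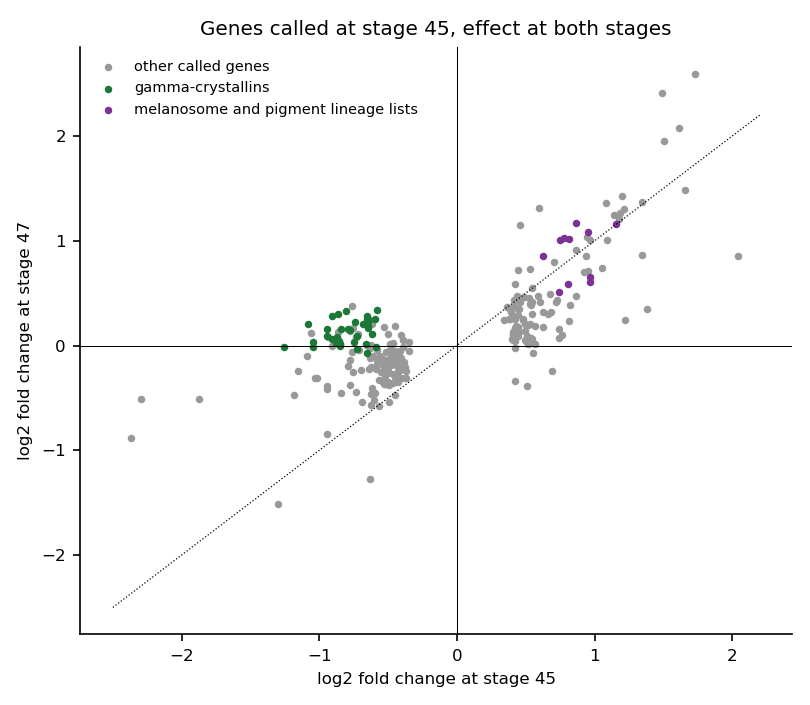
Log2 fold change of thioridazine over control at stage 45 (x axis) and stage 47 (y axis) of the 268 genes called at stage 45; the dotted line marks equal values. Pigment genes lie near that line in the upper right, whereas the gamma-crystallins lie below 0 at stage 45 and around 0 at stage 47, 29 of 35 on the opposite side.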

How the data were processed

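The deposited values are whole-number counts of reads over 37018 genes, not normalized by the authors, from single-end 100 bp reads of an unstranded TruSeq v2 kit, per the labels' protocols. Without strand, overlapping and antisense genes cannot be told apart. Trimmomatic, HISAT2, HTSeq and DESeq2 appear in the submitters' processing notes; versions, build and the handling of multiply mapped reads were not given in the sources used here. Symbols came from a RefSeq table (33597 identifiers matched). Carriage returns were removed from 3 files. No 2 files were identical.

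All 12 libraries, with 3 per group, were fitted with edgeR 4.0.16 under R 4.3.3 (robust quasi-likelihood test, TMM, filterByExpr), with a coefficient per group and the replicate number as a block within each stage. P-values were adjusted by Benjamini-Hochberg over 27050 genes and those under 0.05 called. SE values come from the F statistic. CPM are counts scaled to TMM library sizes, and are not per length. The comparison rule asked for pairs. That the block raises the number of calls was known, since the members, the 45 lists and the naming rule were chosen with earlier results of these data known. Genes matched to a list only through a similar symbol were removed after values were seen. The correlations of same-numbered libraries, above 0.1 in every pair, are the basis of the pairing, not a label.

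Named genes were, among called genes with a name and a mean of at least 1 CPM, the 15 largest rises and falls, the 5 of highest level per direction, up to 5 called members per list and direction, the member with the smallest p of uncalled lists, 11 fixed genes, and homeologs; 1 gene under this rule is not reported here. The script was tested on simulated counts. Alternatives were other blocks, DESeq2 1.42.0, other scalings and filters, a 1.5-fold threshold, summed homeologs and leaving out each pair. Intervals were not used, and with 3 against 3 a permutation test cannot go below p = 0.1, so none was run. Promoter motifs were not analysed here.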

Additional observations from a re-analysis of the deposited data

Results flagged for a closer look

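For 8 of the named genes the effect of thioridazine at stage 45 differed from that at stage 47 in edgeR's test of the difference itself (paired within stage). The difference in log2 fold change, stage 45 minus stage 47, was -0.94 for crygdl.5.L, -0.78 for crygdl.13.L, -1.29 for crygdl.3.S, -0.88 for crygdl.3.L, -1.04 for crygdl.6.S, -0.93 for crygdl.6.L and -0.97 for crygdl.12.L. These 7 are copies of a family whose shared reads could not be separated here, and how far their values are independent was not tested. The cone kinase grk7.L had a difference of -0.69, with a smaller rise at stage 45 than at stage 47. Adjusted p lay between 0.0057 and 0.034.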

How the results depend on the processing

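The count of 268 genes at stage 45 rested on the replicate block. It was 0 with no replicate block, also when only stage 45 libraries were fitted, 16 with a replicate block shared by both stages, 77 in DESeq2 without it, 2 against a 1.5-fold threshold, and 42 to 153 without 1 stage 45 pair. Leaving out a stage 47 pair gave 220 to 411. Other scalings, filters, summed homeologs, DESeq2 with the block and the fit of stage 45 alone with the block gave 193 to 402. For the difference between stages, 27 genes became 0 without the block and against 1.5-fold, 52 and 4 in DESeq2 with and without the block, 51 with no filter, and 3 to 56 without 1 pair. The 171 genes of stage 47 became 20, 51, 111, 69 and 23 with no block, the shared block, DESeq2 with and without the block, and 1.5-fold, and 81 to 205 without 1 pair of either stage. None of the 268 genes turned direction at stage 45 in the alternatives that tested it, summed homeologs aside, where directions were not compared. All 268 had the same direction in every stage 45 pair, so these alternatives could hardly reverse them, and their unchanged direction says little about robustness. Of the uncalled named genes, sox9.L (main value 0.0050) turned to -0.0016 with no block, -0.0085 and -0.016 with stage 45 alone with and without the block, -0.0052 in DESeq2 without it and -0.012 with upper-quartile scaling. The ranges of uncalled named genes that changed sign without 1 pair were -0.036 to 0.022 for sox9.L, -0.061 to 0.15 for col2a1.L, -0.12 to 0.022 for dlx5.L, -0.0021 to 0.15 for dlx5.S, -0.64 to 0.16 for drd2.S, -0.13 to 0.44 for mmp9.2.L and -0.18 to 0.34 for thrb.S. The cause was not tested. The depth of 11998636 to 16710935 counts per library limits the genes of a few CPM most.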
